A study of Rattus norvegicus with 43 samples.

Results

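The effect of excess folic acid on cultured rat smooth muscle cells was compared between a late and an early day as an interaction: the difference between excess and sufficient medium at day 21 minus the same difference at day 7. It rests on 19 arrays of 43, picked by the folic acid concentration and the day in the array titles. Genes in which the effect came late were told apart from genes that had already moved at day 7. The cells were A7r5, an established smooth muscle line from embryonic rat aorta, and the study set out to follow folate deficiency in them. Each group was kept in custom-made DMEM that differed in folic acid alone, as far as the labels say. Sufficient medium held 10 ng/ml, with 5 arrays at day 7 and 5 at day 21. Excess medium held 100 ng/ml, with 4 arrays at day 7 and 5 at day 21. A further 10 arrays, 5 of each medium at day 14, are in neither term of the interaction and give the same measure apart from it. Deficient medium held 2.5 ng/ml, with 4 arrays at day 7 and 5 at day 21, and served as another comparison. The sources used here do not say whether the cells were split, confluent or still dividing, and the labels leave unsaid whether each replicate was grown apart. The p-values therefore cover the spread among these arrays alone, part of which may be technical.

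Folate carries one-carbon units. Cells use them to make thymidylate and purines for DNA, and to remake methionine, the source of methyl groups. Vascular smooth muscle cells are known for moving between a dividing state and a contractile state in which actin, myosin and their partners are abundant.

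Messenger RNA was read on Affymetrix rat expression arrays, whose probe sets lie mainly near the 3' ends of transcripts, and values are on a log2 scale on which a step of 1 is a doubling. All 12 smooth muscle markers passed the filter (log2 above 4 in at least 4 arrays), Acta2 (smooth muscle actin) at 14.15 ± 0.33 (SD, n = 5) in sufficient medium at day 7. Of 4 adipocyte markers on the array 0 passed, and of 4 endothelial markers only Vwf, with group means of 3.67 to 3.97. Krt8 was the only epithelial marker of 5, and Cd14 the only leukocyte marker of 5, to pass. The mean of the 5 fibroblast markers was 5.03 to 5.25 in sufficient and 5.07 to 5.16 in excess medium at day 7, and 5.45 to 5.56 and 5.68 to 6.08 at day 21, higher than at day 7 in both media. Thy1 had group means of 9.86 to 11.52 and Pdpn of 7.95 to 9.01, and Pdgfra and Dcn did not pass the filter. Of the 4 groups of the interaction, Lum exceeded the filter's limit only in excess medium at day 21. The interaction of Pdpn was -0.48 ± 0.13, opposite in sign to that of Lum. The part of fibroblast-like cells in the results was not tested. Each bulk value is an average over the culture, so fewer cells of a kind and less RNA per cell cannot be told apart.

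Some arrays stood apart in technical measures. The gap between the 3' and the 5' probe set of beta-actin, which widens as RNA is degraded or short, was 1.50 to 2.38 (log2) in sufficient and 1.50 to 1.90 in excess medium at day 7. At day 21 it was 1.56 to 1.98 in sufficient and 1.76 to 2.79 in excess medium, so 3 of the 5 excess arrays of day 21 lay above each sufficient array of that day. Array titles carry serial numbers, and serials above 45, outside the order of the groups, fell on 1, 1, 2 and 2 arrays of the 4 groups in this order. The labels do not say what the serials stand for. Results are given below without the arrays above a gap of 2, which leaves 3, 4, 5 and 2 arrays, and without the serials above 45, where this ends a call or moves a called value or a count by more than 1.5 times, for the lists and for the genes named by rule. Correlations between replicate arrays were 0.9872 to 0.9974. Precision is limited by how many arrays each group has.

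**Figure D1:**
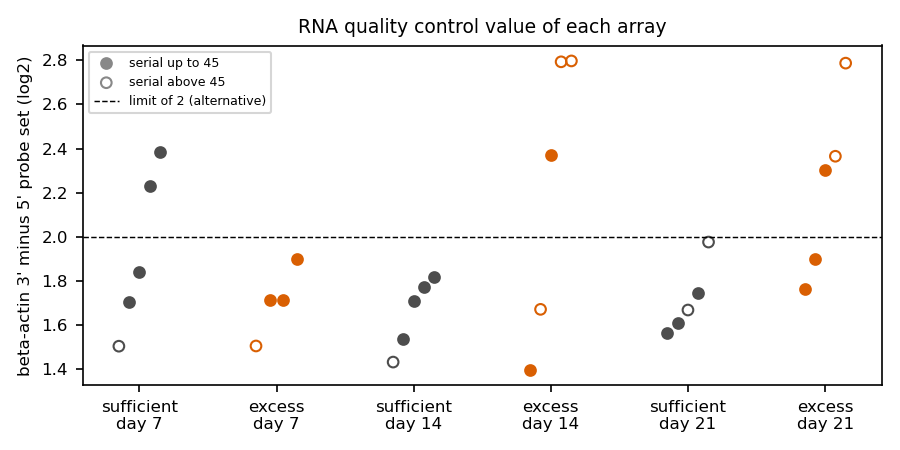
Gap between the 3' and 5' probe sets of beta-actin (log2, vertical axis) in each array of sufficient (grey) and excess (orange) medium at days 7, 14 and 21. Open circles are arrays with serials above 45, and the dashed line marks a gap of 2. The excess arrays reach 2.79 at day 21, and the sufficient arrays of that day stay at or below 1.98.

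The effect of excess folic acid differed between day 21 and day 7 in 2232 of 9095 genes tested (24.5%), at an adjusted p below 0.05 in limma. It was higher at day 21 in 1547 genes (17%) and lower in 685 (7.53%), at least 2-fold in 148 and 93 of them. At day 7 the effect itself was called in 216 genes (2.37%), 25 higher and 191 lower in excess medium. At day 14 it was called in 3743 (41.2%) and at day 21 in 3974 (43.7%). The median over all genes was -0.06 at day 7 and 0.03 at day 21, and 0.09 for the interaction. When each array was centred on its own median, 2146 genes were called, 934 higher and 1212 lower, so 43.5% were higher where 69.3% were before. Of the 2232 genes, 1619 were also called there. The balance of higher and lower genes therefore depends on the scaling, and directions below are also read against the median of all genes.

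Most genes called in the interaction fell in the late class, which rests in part on a missed threshold at day 7. Such a miss does not show that nothing had changed by then. Late genes, called in the interaction and at day 21 and with an unadjusted p of 0.05 or more at day 7, numbered 1633, or 73.2% of the genes called: 1121 higher and 512 lower. At day 21, 108 of the former and 68 of the latter were at least 2-fold from sufficient medium, where 3.06% of all genes were called with such a size. Another 500 genes were in between, because day 7 had an unadjusted p below 0.05 without being called, or because day 21 was not called (168 of them). Several of the largest differences lie in this group, with a small unclear shift at day 7. Of the 216 genes already called at day 7, 41 had moved further in the same direction by day 21, 39 had moved back so that day 21 was smaller or not called, and 19 were called on both days with opposite signs. For the other 117 no difference between the days was called. Without the arrays above the beta-actin gap of 2, 1222 genes were called in the interaction and 934 were late. Among them were 1106 of the 2232 genes called before and 734 of the 1633 late ones. The sign was the same in 2231 of the 2232, which says little, because the arrays kept are among those that picked the genes. Serials up to 45 gave 1841 called and 1119 late genes.

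**Figure D2:**
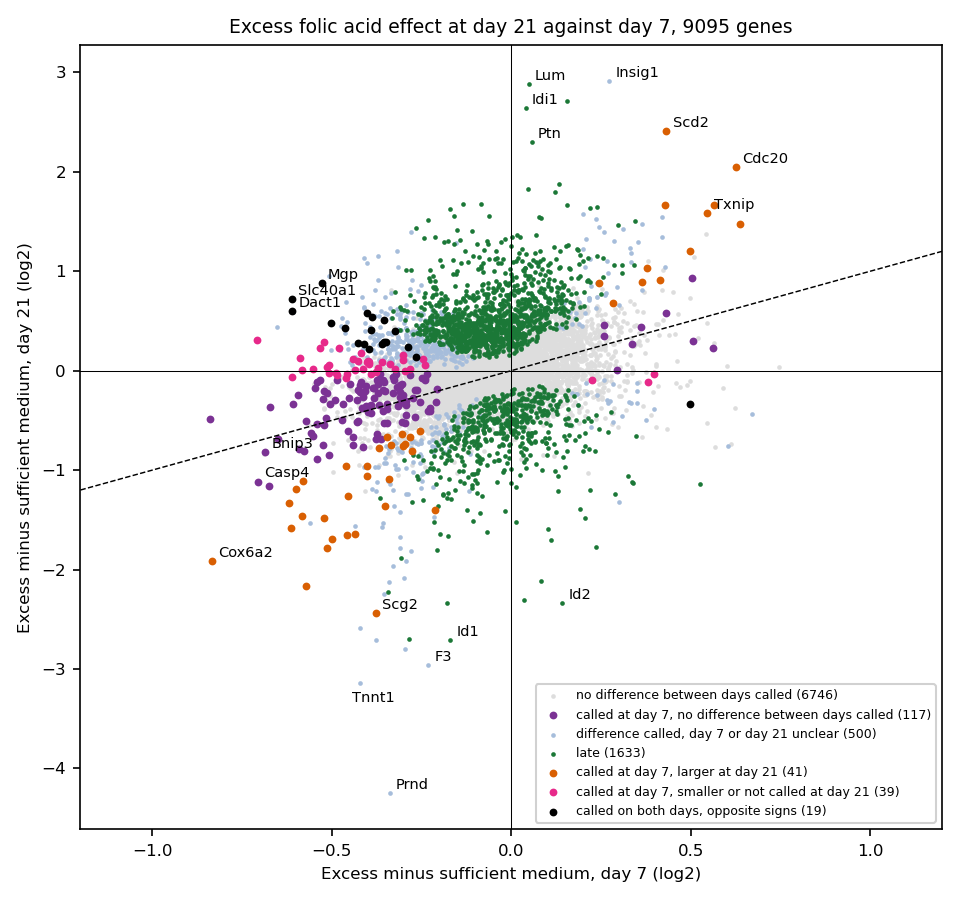
Excess minus sufficient medium at day 7 (horizontal axis, log2) and at day 21 (vertical axis, log2) for 9095 genes, with the line of equal effects dashed. Colours mark late genes (1633), genes in between (500), genes called at day 7 that moved further (41), moved back (39), changed sign (19) or showed no called difference (117). The axes differ in scale, and the day 21 effects spread from -4.25 (Prnd) to 2.91 (Insig1).

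Promoters of genes from the leading groups are shown first, because several groups that moved together are known to share promoter elements. Each gene was picked among called list members that hold the motif marked in it, the largest interactions first. Matches to the other motifs searched are not marked. They are the 250 bases before the start of transcription, from RefSeq (GRCr8 assembly), on the gene's strand, 5' to 3'. Capitals mark a CCAAT box (CCAAT, or ATTGG on the other strand) in Insig1 (chr4:8057770-8058019, minus strand) and Idi1 (chr17:66547525-66547774, minus strand). In Cdc20 (chr5:137255800-137256049, minus strand) they mark CCAAT boxes and a cell cycle homology region, TTTGAA on either strand. Mcm7 (chr12:22163179-22163428, minus strand) has E2F sites (TTTNNCGC) in capitals, Acta1 (chr19:68784195-68784444, minus strand) a CArG box, and Ttn (chr3:82332111-82332360, minus strand) a MEF2 site. Ttn, the giant sarcomere protein titin, was chosen after its values were seen.
Insig1: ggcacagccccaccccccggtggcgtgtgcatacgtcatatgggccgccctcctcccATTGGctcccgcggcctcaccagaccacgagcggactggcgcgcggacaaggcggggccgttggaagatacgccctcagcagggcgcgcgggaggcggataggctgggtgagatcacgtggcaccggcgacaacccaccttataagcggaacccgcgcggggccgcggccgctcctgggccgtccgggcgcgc
Idi1: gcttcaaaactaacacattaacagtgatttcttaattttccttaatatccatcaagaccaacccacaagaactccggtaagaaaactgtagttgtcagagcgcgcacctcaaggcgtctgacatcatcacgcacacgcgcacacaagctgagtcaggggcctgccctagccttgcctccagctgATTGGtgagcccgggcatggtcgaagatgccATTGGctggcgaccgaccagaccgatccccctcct
Cdc20: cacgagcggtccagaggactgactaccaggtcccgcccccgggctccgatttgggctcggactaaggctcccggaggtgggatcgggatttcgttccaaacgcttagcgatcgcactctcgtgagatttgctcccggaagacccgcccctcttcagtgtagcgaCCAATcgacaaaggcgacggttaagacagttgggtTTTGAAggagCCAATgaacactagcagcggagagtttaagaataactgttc
Mcm7: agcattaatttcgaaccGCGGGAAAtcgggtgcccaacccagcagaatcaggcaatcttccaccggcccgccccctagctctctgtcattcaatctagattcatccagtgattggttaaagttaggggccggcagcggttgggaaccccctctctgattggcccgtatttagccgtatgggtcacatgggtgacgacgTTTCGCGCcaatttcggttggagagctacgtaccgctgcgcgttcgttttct
Acta1: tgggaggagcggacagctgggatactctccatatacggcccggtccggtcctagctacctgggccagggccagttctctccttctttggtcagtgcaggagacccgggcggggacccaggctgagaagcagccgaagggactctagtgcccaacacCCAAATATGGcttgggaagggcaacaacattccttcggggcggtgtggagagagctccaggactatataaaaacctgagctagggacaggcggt
Ttn: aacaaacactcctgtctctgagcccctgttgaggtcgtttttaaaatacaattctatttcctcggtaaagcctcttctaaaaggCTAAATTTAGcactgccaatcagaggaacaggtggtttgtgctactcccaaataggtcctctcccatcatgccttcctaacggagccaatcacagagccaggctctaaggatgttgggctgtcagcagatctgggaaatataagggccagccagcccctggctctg
Searched on both strands in 300 bases (250 before and 50 after the start), the cell cycle homology region was present in 25 of 38 mitosis genes called higher (65.8%), against 11.5% of 7715 tested genes with a promoter and 18.2% of all 27457 promoters. Matches of different motifs were counted separately, whether or not they overlapped. The CCAAT box was in 30 of those 38 (78.9%), in 10 of 13 sterol genes (76.9%) and in 20 of 33 replication genes (60.6%), against 38.7% and 37.7%. E2F sites were in 14 of the 33 replication genes (42.4%), against 9.07% and 5.11%. The sterol regulatory element was in 0 of the 13 sterol genes, where all promoters had it in 0.255%, which says only that its letters were not in these windows. MEF2 sites were in 4 of 11 skeletal and cardiac muscle genes called lower (36.4%), against 1.43% and 3.37%. The CArG box was in 1 of these 11 and in 0 of 6 smooth muscle contractile genes called lower, against 1.36% and 1.64%. A match in a window is a description of the letters only.

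Sterol genes had the highest median of the metabolic lists. They encode the enzymes from acetyl-CoA to cholesterol, their regulators and the receptors that take up lipoproteins. Of 23 tested, 16 had a higher excess effect at day 21 than at day 7 and 0 a lower one, where 17% and 7.53% of all genes did. Their median was 0.84, against 0.09 for all genes. None was called at day 7 (2.37% of all genes were), while 13 were higher and 1 lower at day 14, against 22.3% and 18.8% of all genes, and 18 were higher at day 21, against 24.4%. The same number, 16, was called higher without the arrays above the beta-actin gap of 2, and 18 in serials up to 45. In sufficient medium these genes declined over time, with a median change of -0.65 from day 7 to day 21, and in excess medium the median change was 0.27.

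Insig1, which holds the sterol sensor in the endoplasmic reticulum when sterols are plentiful, showed this plainly. In sufficient medium it was at 7.76, 7.86, 7.92, 7.92 and 7.999 at day 7 and at 5.78, 5.85, 5.86, 5.94 and 5.95 at day 21. In excess medium it was at 8.04, 8.16, 8.22 and 8.24 at day 7 and at 8.66, 8.69, 8.70, 8.77 and 9.12 at day 21. The excess arrays were the higher ones on both days without overlap, by a narrow margin at day 7 and by nearly 3 units at day 21. The interaction was 2.64 ± 0.12 (log2, SE), or 6.23-fold, at adjusted p = 9.7e-20 in limma. At day 7 the difference of 0.27 ± 0.09 did not pass, with an adjusted p of 0.078, which places the gene in between. Its 14-day difference was 0.89 ± 0.08, so most of the gap opened after day 14.

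Idi1, which makes the allylic isomer that starts the chain of isoprene units, read 8.16, 8.25, 8.39, 8.45 and 8.53 in the sufficient arrays of day 7 and 5.87, 6.01, 6.15, 6.21 and 6.25 in those of day 21. The excess arrays read 8.25, 8.43, 8.45 and 8.46 at day 7 and 8.59, 8.69, 8.71, 8.76 and 8.94 at day 21. The media overlapped at day 7 and were far apart at day 21, because the level fell in sufficient medium and rose in excess medium. The interaction was 2.60 ± 0.14 (6.07-fold, adjusted p = 1.6e-17 in limma), and the day 14 difference was already 1.45 ± 0.09. Msmo1, a later enzyme of the pathway, had an interaction of 1.48 ± 0.14. Among the other called members, all named after their values were seen, were Sqle (squalene epoxidase) at 1.47 ± 0.18, the transcription factor gene Srebf2 at 1.13 ± 0.20 and Fdps (farnesyl diphosphate synthase) at 1.12 ± 0.11. Mvk (mevalonate kinase, with another probe set of opposite sign) and Mvd (its pathway's decarboxylase), also named after their values were seen, emerged after day 14, at 0.90 ± 0.20 and 0.59 ± 0.15.

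Scd2, which introduces the double bond of oleate, was at 7.44, 7.44, 7.47, 7.47 and 7.65 in sufficient and 7.58, 7.90, 8.04 and 8.18 in excess medium at day 7. At day 21 the values were 8.37, 8.57, 8.59, 8.70 and 8.75 in sufficient and 10.79, 10.92, 11.00, 11.10 and 11.20 in excess medium. It had already moved at day 7 (0.43 ± 0.10, adjusted p = 0.011 in limma), with 1 excess array inside the sufficient range, and the groups lay more than 2 units apart at day 21. The interaction was 1.97 ± 0.13, at adjusted p = 1.5e-14. Fads1, a desaturase of polyunsaturated fatty acids, was a late gene at 0.88 ± 0.13, as was Acsl3, which activates fatty acids, at 0.90 ± 0.14. In the lipid storage and fatty acid list as a whole, 6 of 26 were called higher and 4 lower, with a median of 0.10 against 0.09 for all genes, of which 17% and 7.53% were called. Serials up to 45, and the arrays at or below the beta-actin gap of 2, each gave 3 and 3, and leaving out 1 of sufficient day 7 replicates 1 or 2, excess day 7 replicate 4 or excess day 21 replicates 3 or 4 left 3 higher.

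**Figure D3:**
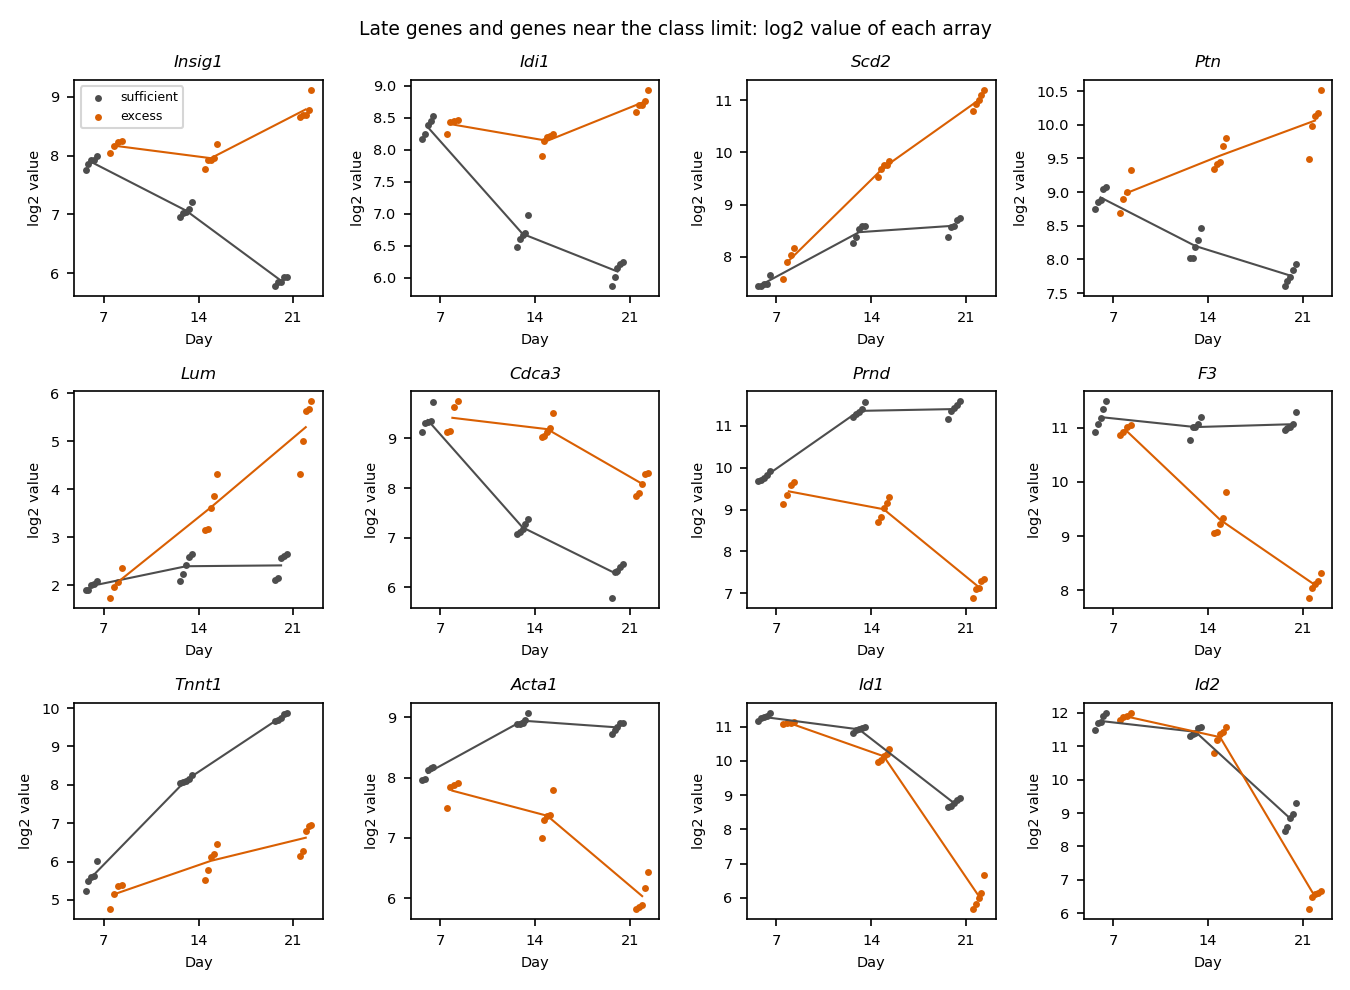
Log2 value of each array (points) and group mean (lines) at days 7, 14 and 21 in sufficient (grey) and excess (orange) medium for 12 genes. They are late or near the limit of the late class, except Scd2, which was already called at day 7. Insig1, Idi1, Ptn and Cdca3 are lower in sufficient medium at day 21 than at day 7. Prnd and Acta1 fall in excess medium while they rise in sufficient medium, and Id1 and Id2 fall in both, further in excess medium.

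Genes of cell division were the list with the most higher calls. Of 52 tested mitosis genes, 46 had a higher excess effect at day 21 and 0 a lower one, against 17% and 7.53% of all genes, with a median of 0.88 against 0.09. Of 42 DNA replication genes it was 37 and 0, with a median of 0.75. At day 7, 5 mitosis genes were called higher in excess medium and 0 lower, and of the replication genes 0 higher and 1 lower, against 0.275% and 2.1% of all genes. By day 14, 50 mitosis genes and 34 replication genes were called higher in arrays outside the interaction, against 22.3%. The lists differed in what came after: between days 14 and 21 the excess effect of 6 mitosis genes declined and 5 replication genes rose further, where 4.67% and 3.94% of all genes did. Both kept a positive median in each setting run, 37 and 24 genes being called higher without the arrays above the beta-actin gap of 2.

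These genes fell with time in both media, and less in excess medium. Relative to sufficient medium at day 7, the mean of the mitosis genes was -2.26 to -2.11 in the 5 sufficient arrays of day 21 and -1.17 to -1.04 in the 5 excess arrays. The replication mean was -1.57 to -1.44 in sufficient and -0.84 to -0.75 in excess medium. Neither pair of ranges overlapped, whereas the mitosis means of day 7 were 0.06 to 0.25 in excess and -0.09 to 0.12 in sufficient medium, higher in excess with an overlap. At day 7 the replication means of the excess arrays, -0.15 to 0.05, lay within or beside those of the sufficient arrays, -0.08 to 0.11.

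Cdca3, which helps degrade an inhibitor of mitotic entry, was at 9.13, 9.31, 9.33, 9.35 and 9.73 in sufficient and 9.13, 9.15, 9.64 and 9.75 in excess medium at day 7. At day 21 it was at 5.79, 6.31, 6.32, 6.41 and 6.46 in sufficient and 7.85, 7.90, 8.08, 8.29 and 8.31 in excess medium. The media overlapped fully at first, and every excess array was above every sufficient array later. The interaction was 1.78 ± 0.19, or 3.43-fold, at adjusted p = 4e-09 in limma. Kif11, the motor that separates spindle poles, had 1.68 ± 0.20, Melk, a kinase abundant in dividing cells, 1.76 ± 0.18, and Pbk, another mitotic kinase, 1.57 ± 0.20, all late genes.

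Cdc20, which activates the anaphase-promoting complex, had already moved by day 7. It was at 8.04, 8.16, 8.35, 8.42 and 8.77 in sufficient and 8.88, 8.96, 8.98 and 9.07 in excess medium at day 7, and at 5.14, 5.30, 5.67, 5.71 and 5.97 in sufficient and 7.27, 7.63, 7.68, 7.72 and 7.72 in excess medium at day 21. The excess arrays were higher on both days without overlap. The effect was 0.63 ± 0.14 at day 7 (adjusted p = 0.011 in limma) and 2.05 ± 0.13 at day 21, and the interaction was 1.42 ± 0.19.

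Mcm7, a subunit of the replicative helicase, was at 10.95, 10.95, 10.97, 11.15 and 11.18 in sufficient and 11.15, 11.27, 11.27 and 11.28 in excess medium at day 7, and at 8.57, 8.65, 8.69, 8.71 and 8.80 in sufficient and 10.14, 10.20, 10.28, 10.34 and 10.34 in excess medium at day 21. Only the lowest excess array overlapped the sufficient ones at day 7, and none did at day 21. The interaction was 1.38 ± 0.12 (adjusted p = 1.2e-11 in limma). Pold1, the catalytic subunit of polymerase delta, emerged after day 14: its effect was 0.26 ± 0.14 at day 14 and 1.02 ± 0.14 at day 21. Rfc2, of the clamp loader, changed sign, from -0.40 ± 0.11 at day 7 to 0.58 ± 0.11 at day 21, while Rfc3 of the same complex was late, at 1.24 ± 0.16.

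DNA damage and repair genes followed with smaller values, 15 of 35 higher and 0 lower, against 17% and 7.53% of all genes. Their median was 0.36, against 0.09. Blm, a helicase of recombination repair, had an interaction of 1.48 ± 0.22, Fancd2, of crosslink repair, 1.19 ± 0.14, and Exo1, a nuclease of mismatch repair, 1.16 ± 0.23. The sufficient arrays of day 21 lay near the filter limit of 4 for Blm, at 3.979 to 4.755, and Fancd2, at 3.73 to 4.07. The sizes of Blm and Fancd2 are therefore inexact. Of 39 writers, readers and erasers of DNA and histone methylation, 11 were higher and 0 lower, against the same shares. Their median was 0.15, against 0.09. Dnmt1, the maintenance DNA methyltransferase, had 0.95 ± 0.21, its partner Uhrf1 0.90 ± 0.19 and Ezh2, the methyltransferase of histone H3 lysine 27, 0.83 ± 0.12. Without the arrays above the beta-actin gap of 2 this list had 3 higher and 1 lower, and Dnmt1 had 0.73 and was not called, and 5 were higher in serials up to 45. Cdkn2c, an inhibitor of cyclin-dependent kinases, was also late, at 1.29 ± 0.17. That was the highest value in a list of p53 targets and growth arrest genes. The list had 5 higher and 5 lower of 18, against 17% and 7.53% of all genes. It had 5 and 2 in serials up to 45 and 4 and 1 without the arrays above the gap. The sufficient arrays of day 21 read 3.99 to 4.48 for Cdkn2c, also near the filter limit.

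**Figure D4:**
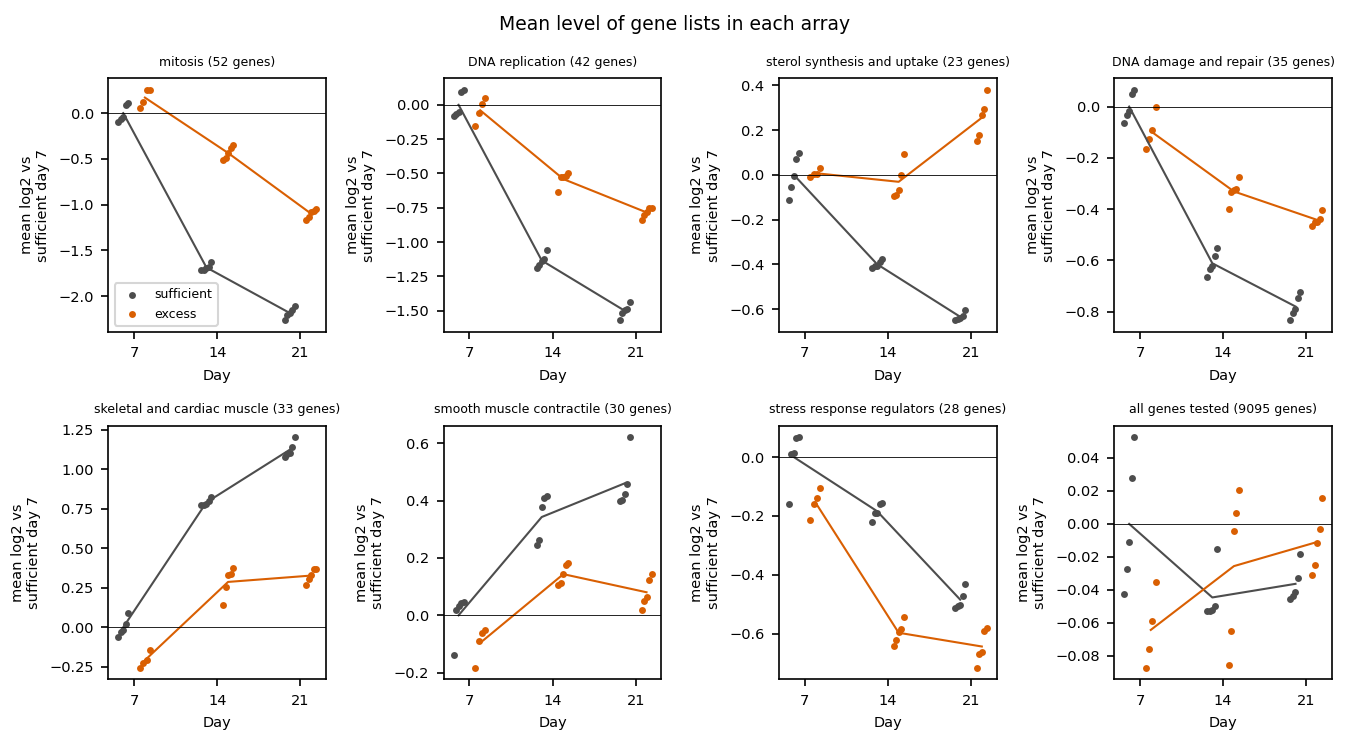
Mean of all tested members of a list in each array (points), relative to the mean of sufficient medium at day 7 (log2, vertical axis), at days 7, 14 and 21 in sufficient (grey) and excess (orange) medium, with group means as lines. Mitosis, replication and repair genes fall in both media, less in excess medium, and the sterol mean ends at -0.65 to -0.60 in sufficient and 0.15 to 0.38 in excess medium. Vertical scales differ between panels, and the panel of all genes spans less than 0.2.

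Genes of folate metabolism were divided. Of 20 tested, 6 had a higher excess effect at day 21 than at day 7 and 2 a lower one, where 17% and 7.53% of all genes did, with a median of -0.12 against 0.09. Centring each array on its median gave 3 higher and 5 lower, and leaving out the arrays above the beta-actin gap of 2 gave 2 and 2 and serials up to 45 5 and 1. The 6 belong to the mitochondrial and cytosolic routes that feed one-carbon units into thymidylate and purines. At day 14 the list had 1 member higher and 11 lower in excess medium, against 22.3% and 18.8% of all genes, and at day 21 6 higher and 7 lower, against 24.4% and 19.3%.

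Tyms, thymidylate synthase, was at 6.41, 6.46, 6.53, 6.58 and 6.92 in sufficient and 5.63, 6.19, 6.57 and 6.66 in excess medium at day 7. At day 21 it was at 5.03, 5.16, 5.65, 5.67 and 5.67 in sufficient and 5.76, 5.97, 6.02, 6.07 and 6.23 in excess medium. The ranges overlapped at day 7, and the excess arrays were all higher at day 21. The interaction was 0.89 ± 0.21, at adjusted p = 0.0015 in limma. Shmt2, the mitochondrial serine hydroxymethyltransferase, was at 9.08, 9.49, 9.56, 9.60 and 9.71 in sufficient and 8.89, 9.27, 9.40 and 9.40 in excess medium at day 7 and at 6.74, 6.85, 6.91, 7.04 and 7.40 in sufficient and 7.24, 7.32, 7.44, 7.59 and 7.65 in excess medium at day 21. Its ranges overlapped on both days. The interaction was 0.71 ± 0.19 (adjusted p = 0.0053 in limma), and its sign at day 14, -0.57 ± 0.13, was opposite to that at day 21, 0.46 ± 0.13. Without the arrays above the beta-actin gap of 2 the interaction was 0.43 and was not called.

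Mthfd1l, the mitochondrial formyltetrahydrofolate synthetase, emerged after day 14 with 0.68 ± 0.22. The call was lost in serials up to 45, where it was 0.41, and without the arrays above the beta-actin gap, where it was 0.54. Its sufficient arrays of day 21, at 3.41 to 4.37, lay near the filter limit of 4, so its size is inexact. Mthfd1, Gart and Shmt1, all named after their values were seen, had 0.52 ± 0.10, 0.46 ± 0.14 and 0.44 ± 0.13. Folr1, a folate receptor, was lower at -0.57 ± 0.16, and -0.34 without a call when the arrays above the beta-actin gap were left out. Its size is inexact, since its arrays of the 4 groups lay near the filter limit of 4, at 3.53 to 4.80. Qdpr, dihydropteridine reductase, named after its values were seen, was lower at -0.41 ± 0.13. Slc19a1, the reduced folate carrier, had -0.11 ± 0.16 (adjusted p = 0.64).

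Mthfd2, the mitochondrial methylene dehydrogenase of the folate cycle, had moved by day 7 and showed no called difference between the days. It was at 8.88, 8.90, 9.06, 9.20 and 9.29 in sufficient and 8.36, 8.43, 8.56 and 8.86 in excess medium at day 7, and at 7.03, 7.05, 7.13, 7.13 and 7.23 in sufficient and 6.49, 6.53, 6.56, 6.72 and 6.90 in excess medium at day 21. The excess arrays were lower on both days without overlap. The effect was -0.52 ± 0.15 at day 7 and -0.47 ± 0.14 at day 21, and the interaction was 0.04 ± 0.20 (adjusted p = 0.9 in limma).

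Nucleotide synthesis genes had 9 of 26 higher and 3 lower, where 17% and 7.53% of all genes were called, with a median of 0.16 against 0.09, but 3 and 6 after centring on the array medians and 2 and 2 without the arrays above the beta-actin gap. Tk1, thymidine kinase, had 0.88 ± 0.15 and Pfas, of purine synthesis, 0.68 ± 0.15, which was 0.47 without a call when the arrays above that gap were left out. In the methionine cycle and polyamine list 4 of 23 were higher and 2 lower, shares near those of all genes, and 2 and 2 without those arrays. Mat1a, which makes S-adenosylmethionine, was lower at -1.01 ± 0.13 and had already moved at day 7, Odc1, the first enzyme of polyamine synthesis, was lower at -0.49 ± 0.08, and Mtrr, which reactivates methionine synthase, was higher at 0.52 ± 0.15, or 0.43 without a call when those arrays were left out.

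Skeletal and cardiac muscle genes were the list with the most lower calls. Of 33 tested, 15 had a lower excess effect at day 21 than at day 7 and 4 a higher one, against 7.53% and 17% of all genes, with a median of -0.39. At day 7, 3 were called lower in excess medium, 19 at day 14 and 23 at day 21, against 2.1%, 18.8% and 19.3% of all genes. The counts were 15 and 4 also without the arrays above the beta-actin gap of 2 and in serials up to 45. These genes rose with time in sufficient medium, by a median of 0.89 from day 7 to day 21, and by 0.30 in excess medium.

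Tnnt1, the troponin T of slow muscle, was at 5.23, 5.49, 5.59, 5.61 and 6.01 in sufficient and 4.76, 5.16, 5.36 and 5.39 in excess medium at day 7. At day 21 it was at 9.67, 9.69, 9.73, 9.85 and 9.88 in sufficient and 6.15, 6.27, 6.80, 6.92 and 6.96 in excess medium. The ranges overlapped at day 7, and every excess array was far below every sufficient array at day 21. The interaction was -2.72 ± 0.21, 6.59-fold lower, at adjusted p = 1.9e-12 in limma. Acta1, skeletal actin, was at 7.96, 7.97, 8.12, 8.17 and 8.18 in sufficient and 7.50, 7.85, 7.88 and 7.90 in excess medium at day 7 and at 8.73, 8.78, 8.84, 8.90 and 8.90 in sufficient and 5.82, 5.86, 5.90, 6.18 and 6.43 in excess medium at day 21. It rose with time in sufficient medium and fell in excess medium, and the ranges did not overlap on either day. Its interaction was -2.498 ± 0.16 (5.65-fold).

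Myh2, a fast myosin heavy chain, was at 3.47, 3.50, 3.74, 3.77 and 3.90 in sufficient and 3.35, 3.36, 3.40 and 3.46 in excess medium at day 7, and at 5.50, 5.54, 5.88, 6.02 and 6.42 in sufficient and 3.04, 3.08, 3.18, 3.27 and 3.29 in excess medium at day 21. Of the 4 groups, only the sufficient arrays of day 21 were above the filter limit of 4. The interaction of -2.42 ± 0.25 therefore compares 1 measurable group with 3 near background and its size is inexact. Ttn, whose promoter is shown above, had -1.69 ± 0.28. Members called higher, named after their values were seen, were Tnnt2 (cardiac troponin T) at 0.87 ± 0.09, Ckmt2 at 0.97 ± 0.21, Eno3 at 0.69 ± 0.13 and Tnnc2 at 0.40 ± 0.08. The mean of the 6 skeletal muscle markers was 4.74 to 4.88 in the sufficient arrays of day 7, 5.33 to 5.53 in those of day 21 and 4.87 to 5.03 in the excess arrays of day 21. Of these markers Tnnc2 had group means of 10.61 to 12.67, Myh3 of 3.91 to 6.74, Myod1 of 2.31 to 4.82 and Ckm of 3.40 to 4.47, while Myog and Actn2 did not pass the filter. The part of skeletal-like cells in these results was not tested.

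Smooth muscle contractile genes moved less far, with 9 of 30 lower and 0 higher, against 7.53% and 17% of all genes. Their median was -0.26, against 0.09. At day 7, 2 were lower in excess medium and at day 21 17, against 2.1% and 19.3% of all genes. Myocd, the coactivator that drives the contractile program, was at 9.19, 9.28, 9.34, 9.41 and 9.43 in sufficient and 9.46, 9.53, 9.55 and 9.65 in excess medium at day 7. At day 21 it was at 9.07, 9.10, 9.36, 9.42 and 9.70 in sufficient and 8.23, 8.35, 8.55, 8.78 and 8.79 in excess medium. The excess arrays were slightly higher at day 7 and all lower at day 21. The interaction was -1.01 ± 0.16 (adjusted p = 5.5e-06 in limma), and the day 14 difference was -0.05 ± 0.11, which did not pass.

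Cnn1, calponin, was at 10.91, 10.92, 10.95, 11.06 and 11.09 in sufficient and 10.77, 10.77, 10.80 and 10.85 in excess medium at day 7 and at 11.04, 11.06, 11.14, 11.17 and 11.24 in sufficient and 10.21, 10.29, 10.30, 10.33 and 10.44 in excess medium at day 21. The ranges were close but separate at day 7 and farther apart at day 21, and the interaction was -0.63 ± 0.08. Myh11, smooth muscle myosin, had -0.81 ± 0.16, Itga8, an integrin of contractile cells, -0.82 ± 0.17, and Tagln -0.34 ± 0.07. Acta2 had -0.29 ± 0.25 (adjusted p = 0.42). Of the other smooth muscle markers, Mylk was called at -0.74. Tpm2 (0.03), Smtn (-0.07), Myl9 (-0.08), Cald1 (-0.11), Des (-0.49) and Lmod1 (-0.70) were not called.

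Id1 and Id2, inhibitors of helix-loop-helix transcription factors and targets of BMP signalling, gave the lowest late values. Id1 was at 11.16, 11.24, 11.29, 11.31 and 11.40 in sufficient and 11.08, 11.11, 11.12 and 11.13 in excess medium at day 7, and at 8.64, 8.68, 8.78, 8.85 and 8.90 in sufficient and 5.67, 5.84, 6.01, 6.14 and 6.66 in excess medium at day 21. Id2 was at 11.49, 11.68, 11.72, 11.89 and 12.00 in sufficient and 11.80, 11.88, 11.91 and 12.00 in excess medium at day 7, and at 8.47, 8.57, 8.87, 8.97 and 9.29 in sufficient and 6.12, 6.49, 6.59, 6.61 and 6.68 in excess medium at day 21. Both fell with time in both media, and the excess arrays of day 21 were the lowest of all, without overlap. The interactions were -2.54 ± 0.15 and -2.48 ± 0.22, 5.8-fold and 5.58-fold lower.

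The timing of the pair differed. Id1 was lower in excess medium by day 14, at -0.78 ± 0.10, whereas Id2 was at -0.16 ± 0.15 there and moved between days 14 and 21, by -2.18 ± 0.22 (adjusted p = 2.7e-09 in limma). Of the 37 tested genes of the BMP, TGF-beta and Id list, 10 were lower and 5 higher, against 7.53% and 17% of all genes. Their median was -0.14, against 0.09. The third Id gene, Id3, had -1.34 ± 0.20, named after its values were seen. Tgfbi, a matrix protein induced by TGF-beta, ran against them. It was at 9.22, 9.46, 9.46, 9.62 and 9.62 in sufficient and 9.14, 9.26, 9.35 and 9.50 in excess medium at day 7, and at 6.81, 6.89, 6.94, 7.00 and 7.22 in sufficient and 7.96, 7.98, 8.43, 8.44 and 8.46 in excess medium at day 21. It fell in both media, less in excess medium, with an interaction of 1.44 ± 0.16 that arose after day 14.

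The lowest value of all genes was that of Prnd, which encodes doppel, a relative of the prion protein. In sufficient medium it was at 9.68, 9.71, 9.76, 9.82 and 9.92 at day 7 and 11.16, 11.36, 11.42, 11.49 and 11.59 at day 21, and in excess medium at 9.14, 9.35, 9.59 and 9.67 at day 7 and 6.89, 7.1, 7.14, 7.29 and 7.34 at day 21. It rose with time in sufficient medium and fell in excess medium, without overlap on either day. The interaction was -3.91 ± 0.14, or 15.1-fold, at adjusted p = 7.5e-23 in limma, and the day 7 difference of -0.34 ± 0.10 did not pass (adjusted p = 0.067).

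F3, tissue factor, which starts coagulation, was at 10.91, 11.07, 11.18, 11.34 and 11.49 in sufficient and 10.87, 10.91, 11.02 and 11.06 in excess medium at day 7 and at 10.96, 11.00, 11.01, 11.07 and 11.29 in sufficient and 7.86, 8.04, 8.11, 8.17 and 8.32 in excess medium at day 21. The media overlapped at day 7, and the excess arrays of day 21 were far below all others. The change with time was -0.13 ± 0.10 in sufficient medium, which was not called, and -2.87 ± 0.11 in excess medium. The interaction was -2.73 ± 0.15, 6.65-fold lower. Entrep1, an endosomal transmembrane protein gene, was at 2.78, 2.87, 2.91, 3.10 and 3.28 in sufficient and 2.95, 3.01, 3.09 and 3.24 in excess medium at day 7, and at 5.48, 5.97, 6.27, 6.29 and 6.49 in sufficient and 3.80, 3.83, 3.97, 4.13 and 4.18 in excess medium at day 21. Of the 4 groups, only its sufficient arrays of day 21 were well above the filter limit. Its interaction of -2.20 ± 0.20 arose after day 14, where the difference was -0.06 ± 0.14.

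Of 53 matrix genes tested, 11 had a higher and 8 a lower interaction, where 17% and 7.53% of all genes did, with a median of -0.01 against 0.09. Without excess day 7 replicate 6 it was 5 lower, in serials up to 45 12 and 4, and without the arrays above the beta-actin gap of 2 7 and 3. Tnc, tenascin C, had -2.33 ± 0.18, an inexact size since its excess arrays of day 21 were below the filter limit of 4. Lum, lumican, a small proteoglycan of collagen fibrils and one of the fibroblast markers, was at 1.90, 1.90, 2.02, 2.04 and 2.08 in sufficient and 1.74, 1.97, 2.07 and 2.36 in excess medium at day 7, and at 2.10, 2.14, 2.57, 2.62 and 2.65 in sufficient and 4.33, 5.00, 5.63, 5.68 and 5.84 in excess medium at day 21. It lay below the filter limit in 3 of the 4 groups, and only the excess arrays of day 21 were above it, so its interaction of 2.83 ± 0.30 is inexact. Ogn, a related proteoglycan, had 1.48 ± 0.26, inexact since its sufficient arrays of day 21, at 3.075 to 3.663, lay below the limit. The collagen genes Col6a1 and Col3a1, named after their values were seen, had 1.45 ± 0.18 and 0.92 ± 0.16.

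Among growth factors, Ptn (pleiotrophin) was at 8.75, 8.85, 8.89, 9.04 and 9.08 in sufficient and 8.70, 8.90, 9.00 and 9.32 in excess medium at day 7, and at 7.60, 7.69, 7.73, 7.84 and 7.94 in sufficient and 9.49, 9.99, 10.14, 10.18 and 10.52 in excess medium at day 21. The level fell in sufficient and rose in excess medium, from overlapping to separate ranges, and the interaction was 2.25 ± 0.21 (adjusted p = 1e-10 in limma). Hbegf, an EGF receptor ligand, went the other way with -1.53 ± 0.21, and Fgfr3, an FGF receptor, with -1.01 ± 0.15. Slc29a1, a nucleoside transporter, was at 2.39, 2.43, 2.46, 2.59 and 2.87 in sufficient and 2.502, 2.70, 2.75 and 2.78 in excess medium at day 7, below the filter limit, and at 4.40, 4.42, 4.50, 4.61 and 4.69 in sufficient and 6.18, 6.23, 6.46, 6.50 and 6.65 in excess medium at day 21. It rose in both media, further in excess medium, and its interaction of 1.75 ± 0.15 arose after day 14.

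Of the 41 genes that had already moved at day 7 and moved further, 29 had a lower and 12 a higher interaction. Beside them, 191 of all 216 genes called at day 7 were lower in excess medium and 25 higher, so higher genes were the more frequent here. Cox6a2, a subunit of cytochrome oxidase found in muscle, was at 7.92, 7.95, 7.96, 8.16 and 8.26 in sufficient and 6.87, 7.11, 7.30 and 7.58 in excess medium at day 7, and at 9.24, 9.38, 9.39, 9.43 and 9.72 in sufficient and 7.37, 7.44, 7.50, 7.60 and 7.66 in excess medium at day 21. The excess arrays were lower on both days without overlap, and the gap grew as the level rose more in sufficient medium. The interaction was -1.08 ± 0.14. Scg2, a secretory granule protein, was at 6.45, 6.54, 6.54, 6.57 and 6.68 in sufficient and 6.05, 6.07, 6.24 and 6.36 in excess medium at day 7, and at 11.48, 11.51, 11.54, 11.55 and 11.71 in sufficient and 8.81, 9.02, 9.03, 9.36 and 9.38 in excess medium at day 21. It rose in both media, less in excess medium, and the interaction was -2.06 ± 0.14. Vsnl1, a neuronal calcium sensor, had -1.59 ± 0.19 and Pfkp, of glycolysis, -0.97 ± 0.16.

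The regulators of the integrated stress response did not move as one. Of 28 tested, 5 were higher and 5 lower, where 17% and 7.53% of all genes were called, with a median of -0.02. Leaving out excess day 7 replicate 1 gave 3 and 2, as did leaving out the arrays above the beta-actin gap of 2, and serials up to 45 gave 4 and 3. Trib3, a pseudokinase induced by ATF4, was at 9.00, 9.48, 9.54, 9.79 and 9.86 in sufficient and 8.63, 8.88, 9.10 and 9.18 in excess medium at day 7 and at 7.60, 7.65, 7.90, 7.96 and 7.98 in sufficient and 6.15, 6.30, 6.42, 6.44 and 6.46 in excess medium at day 21. It was lower in excess medium on both days, with overlap at day 7 only, and the interaction was -0.88 ± 0.19. Ddit3, the transcription factor CHOP, was at 8.65, 8.73, 8.83, 9.03 and 9.07 in sufficient and 8.36, 8.49, 8.50 and 8.68 in excess medium at day 7, and at 9.10, 9.27, 9.34, 9.34 and 9.39 in sufficient and 7.55, 7.55, 7.57, 7.91 and 8.18 in excess medium at day 21. It rose in sufficient and fell in excess medium, with an interaction of -1.18 ± 0.16. For both genes the effect was larger at day 14, -1.73 ± 0.13 and -1.79 ± 0.11, than at day 21, -1.46 ± 0.13 and -1.54 ± 0.11, though the change between these days did not pass.

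Nupr1, a small stress-induced nuclear protein, was at 11.53, 11.60, 11.61, 11.61 and 11.75 in sufficient and 11.39, 11.39, 11.50 and 11.58 in excess medium at day 7, and at 11.91, 11.93, 11.95, 11.97 and 12.04 in sufficient and 13.11, 13.21, 13.25, 13.28 and 13.34 in excess medium at day 21. The ranges overlapped at day 7, and the excess arrays were all higher at day 21. Its interaction was 1.43 ± 0.08, at adjusted p = 1.2e-16 in limma. Gadd45a, a growth arrest gene, had moved lower by day 7 and moved further, at -0.71 ± 0.21, but had -0.37 without a call when the arrays above the beta-actin gap were left out, and -0.43 without a call in serials up to 45.

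Txnip, which binds thioredoxin and limits glucose uptake, was at 5.18, 5.25, 5.33, 5.38 and 5.76 in sufficient and 5.58, 5.81, 5.94 and 6.38 in excess medium at day 7. At day 21 it was at 7.17, 7.45, 7.47, 7.49 and 7.68 in sufficient and 8.84, 8.86, 8.90, 9.11 and 9.49 in excess medium. It rose with time in both media, more in excess medium, with a slight overlap at day 7 and none at day 21. The interaction was 1.04 ± 0.21 (adjusted p = 0.00029 in limma). The effect was 0.55 ± 0.15, 2.97 ± 0.15 and 1.59 ± 0.15 at days 7, 14 and 21, and the decline from day 14 to day 21 passed, at -1.38 ± 0.21. In the antioxidant list Txnip was the 1 member called higher of 32, and 6 were lower, against 17% and 7.53% of all genes. Among the 6 were Gpx1 (glutathione peroxidase) at -0.94 ± 0.08 and Nqo1 at -0.84 ± 0.12. Leaving out single arrays gave 1 to 3 higher, with 3 without sufficient day 7 replicate 6, and serials up to 45 gave 3 higher and 7 lower.

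Genes that changed sign were lower in excess medium at day 7 and higher at day 21 in 18 of 19 cases, where 191 of all 216 genes called at day 7 were lower in excess medium. Mgp, a matrix protein that inhibits calcification, was at 4.80, 5.25, 5.27, 5.37 and 5.38 in sufficient and 4.16, 4.68, 4.70 and 5.21 in excess medium at day 7, and at 11.36, 11.37, 11.42, 11.46 and 11.67 in sufficient and 12.20, 12.21, 12.25, 12.37 and 12.62 in excess medium at day 21. The excess arrays lay lower with a slight overlap at first, and were all higher at the end of a steep rise in both media. The effect was -0.53 ± 0.13, 1.00 ± 0.13 and 0.88 ± 0.13 at the 3 days. Slc40a1, the iron exporter ferroportin, was at 8.29, 8.37, 8.47, 8.47 and 8.59 in sufficient and 7.64, 7.70, 7.82 and 8.14 in excess medium at day 7, and at 8.41, 8.43, 8.52, 8.55 and 8.64 in sufficient and 9.12, 9.16, 9.22, 9.30 and 9.34 in excess medium at day 21. The ranges were separate on both days, excess medium being lower at first and higher later. The change with time was 0.07 ± 0.10 in sufficient medium, which was not called, and 1.40 ± 0.10 in excess medium. Dact1, an antagonist of Wnt signalling, was at 7.78, 8.05, 8.16, 8.34 and 8.56 in sufficient and 7.34, 7.39, 7.50 and 8.05 in excess medium at day 7, and at 9.54, 9.76, 9.82, 9.98 and 10.03 in sufficient and 10.27, 10.30, 10.40, 10.51 and 10.65 in excess medium at day 21. Its ranges overlapped at day 7, where 1 excess array lay above 2 sufficient ones, and were separate at day 21, and the interaction was 1.21 ± 0.19.

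Genes whose early effect was smaller or not called at day 21 were lower in excess medium at day 7 in 36 of 39 cases, again beside 191 of 216 for all day 7 calls. Mlf1, Qrsl1, Cabp1 and Camkmt had day 7 effects of -0.71 ± 0.20, -0.52 ± 0.14, -0.53 ± 0.14 and -0.59 ± 0.14 and day 21 effects of 0.30 ± 0.19, 0.29 ± 0.13, 0.23 ± 0.13 and 0.13 ± 0.13. None of the 4 passed at day 21. The calls of Mlf1 and Camkmt were lost without the arrays above the beta-actin gap, at 0.80 and 0.40. The median effect of all genes at day 7 was below 0, as given above, and the day 7 calls themselves depended on the scaling and on single arrays. After centring on the array medians 87 genes were called at day 7. Leaving out sufficient day 7 replicate 1, 2 or 6 gave 82, 76 and 338, and leaving out excess day 7 replicate 1, 3, 4 or 6 gave 70, 64, 99 and 544. The number of late genes lay between 1451 and 1718 when single arrays were left out, but the class did not always hold the same genes. Without excess day 7 replicate 3, 1341 of the 1633 were late again, and 1505 without excess day 21 replicate 1. After centring on the array medians 1703 genes were late, 725 higher and 978 lower, and 1123 of the 1633 were among them.

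Among the 117 genes with a day 7 call and no called difference, Casp4, an inflammatory caspase, was at 8.18, 8.35, 8.43, 8.54 and 8.60 in sufficient and 7.44, 7.55, 7.93 and 7.94 in excess medium at day 7, and at 7.77, 7.85, 8.12, 8.13 and 8.17 in sufficient and 6.72, 6.80, 6.88, 6.89 and 7.17 in excess medium at day 21. Bnip3, which marks mitochondria for removal and responds to hypoxia, was at 8.61, 8.76, 8.86, 8.87 and 9.03 in sufficient and 7.66, 7.97, 8.43 and 8.50 in excess medium at day 7, and at 9.32, 9.36, 9.38, 9.42 and 9.49 in sufficient and 8.46, 8.53, 8.54, 8.64 and 8.70 in excess medium at day 21. Both were lower in excess medium on both days without overlap. Their interactions were -0.41 ± 0.16 (adjusted p = 0.051 in limma) and -0.13 ± 0.14 (adjusted p = 0.53), and that of Casp4 was called in several other settings, for example at -0.48 after quantile normalization. Bex1 and Tfec, a relative of the MITF transcription factor, had day 7 effects of -0.84 ± 0.15 and -0.68 ± 0.19 and day 21 effects of -0.48 ± 0.14 and -1.16 ± 0.18.

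**Figure D5:**
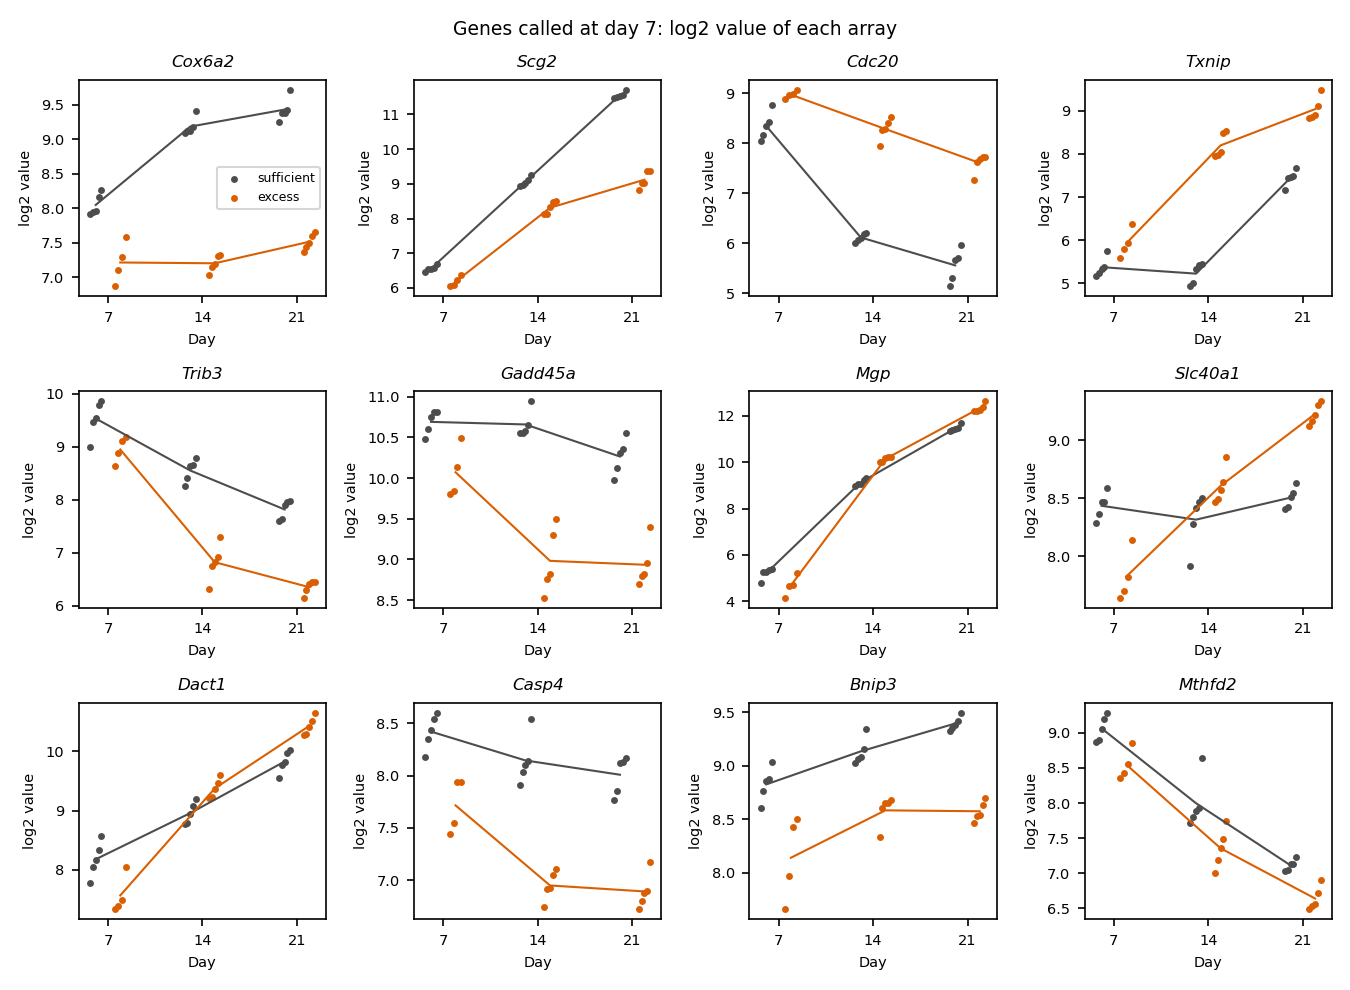
Log2 value of each array (points) and group mean (lines) at days 7, 14 and 21 in sufficient (grey) and excess (orange) medium for 12 genes called at day 7. Cox6a2, Scg2, Cdc20, Txnip, Trib3 and Gadd45a moved further by day 21, Mgp, Slc40a1 and Dact1 changed sign, and Casp4, Bnip3 and Mthfd2 showed no called difference between the days.

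The late genes were also read in the arrays of day 14. Of 1121 late genes with a higher value, 729 (65%) were called higher at day 14 and 12 lower, against 22.3% and 18.8% of all genes. Of 512 with a lower value, 313 (61.1%) were called lower and 9 higher. The groups of day 14 share no array with the interaction, so this is the same measure in other arrays. The beta-actin gap in them was 1.40 to 2.80 in excess and 1.43 to 1.82 in sufficient medium, and 3 of the 5 excess arrays had serials above 45. Without the arrays above a gap of 2 the day 14 effect was called in 2133 of all genes, and with serials up to 45 in 2294. For 301 late higher and 148 late lower genes the day 14 difference had an unadjusted p of 0.05 or more, and they were counted as emerging after day 14, though a missed threshold does not show that nothing had changed. The effect of excess medium differed between days 21 and 14 in 783 of all genes (8.61%), a comparison that uses the day 21 arrays again, and in 94 of the 301 and 83 of the 148. Id2, Tgfbi, Slc29a1, Entrep1, Mmp2 (a gelatinase, 0.91 ± 0.22), Casp1 (0.98 ± 0.19) and Myocd were in this set. Mmp2 was not called in serials up to 45, at 0.59, and its size is inexact, since both groups of day 7 lay below the filter limit of 4.

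The interaction can also be read as the change over time in excess medium minus that in sufficient medium, from the same 19 arrays. From day 7 to day 21, 5696 genes (62.6%) changed in sufficient and 5456 (60%) in excess medium. Of the 1547 genes with a higher interaction, 424 changed with time in sufficient medium only, 384 in excess medium only, and 391 changed the same way in both but less in excess medium. A larger change in excess medium was found in 240 and opposite changes in 98. Of the 685 genes with a lower interaction, the same counts were 170, 130, 171, 146 and 64. Cdca3, Cdc20 and Mcm7 belong to the smaller changes in excess medium, Lum and F3 to changes in excess medium only, and Insig1, Idi1, Ptn, Prnd and Acta1 to the opposite ones.

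With deficient in place of sufficient medium, 2847 genes (31.3%) were called, 1891 higher and 956 lower, and 2224 of the 2232 genes had the same sign. The excess arrays are shared by both comparisons, so the values are only set side by side. Prnd had -3.91 ± 0.14 against sufficient and -4.17 ± 0.15 against deficient medium, Insig1 2.64 ± 0.12 and 2.63 ± 0.12, Id1 -2.54 ± 0.15 and -3.02 ± 0.15, Txnip 1.04 ± 0.21 and 2.54 ± 0.22, and Mgp 1.41 ± 0.18 and 2.12 ± 0.19. Mthfd1l, at 0.68 ± 0.22 and 0.25 ± 0.22, and Shmt2, at 0.71 ± 0.19 and 0.47 ± 0.20, were not called against deficient medium.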

How the data were processed

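The values were the deposited log2 expression values of 43 Affymetrix arrays. The submitters' processing notes name GCRMA and limma, without versions. Array medians were 3.66 to 3.72. Of 31099 probe sets, 20832 had 1 gene symbol, 436 several and 9831 none. Symbols came from the platform annotation, and 20764 matched RefSeq by gene identifier. A gene was represented by its probe set of highest mean across the 43 arrays, which gave 14217 genes, of which 9095 exceeded log2 4 in at least 4 arrays.

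One linear model with 9 group means was fitted with limma 3.58.1 in R 4.3.3 (34 residual degrees of freedom), and p-values were adjusted by Benjamini-Hochberg over all 9095 genes at a threshold of 0.05. The procedure was tested on simulated data with noise drawn independently for each gene and array, so shifts shared by the genes of an array were not covered. It recovered 51 of 100 interactions of log2 0.5 and 94 of 100 of log2 1, with 8 false calls. Interactions near 0.5 can therefore be missed. Fold changes are powers of 2 of log2 differences, and SE is the model's standard error.

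Genes were named by rule: the 10 highest and 10 lowest interactions, 4 per class, up to 3 called members per list, with a highest group mean of at least 5 for the first 2 sets, and 10 genes set by name (Mthfd2, Tyms, Shmt2, Slc19a1, Folr1, Txnip, Acta2, Tagln, Cnn1 and Myh11). The members and the 37 gene lists were chosen with earlier results of these data known. Alternatives covered filters, scaling, array weights, probe set choice, array serials, beta-actin, the replicate block and single arrays.

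The labels do not say whether replicate numbers pair the arrays. Of 22 same-numbered pairs, 7 had deviations correlated above 0.1 (range -0.416 to 0.59), which does not settle it. No pair of arrays was identical.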

Additional observations from a re-analysis of the deposited data

Results flagged for a closer look

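Among 34 genes whose array values are printed, 136 groups were searched for an array far from the others by Dixon's criterion, which flags about 1 group in 20 by chance, and 8 were found. Acta1 was at 7.501 in excess day 7 replicate 4, below 7.848 to 7.904 in the others. Idi1 was at 8.245 in that same array, below 8.432 to 8.461. Insig1 was at 9.119 in excess day 21 replicate 4, above 8.655 to 8.773. Scd2 was at 7.648 in sufficient day 7 replicate 5, above 7.436 to 7.474. Cdca3 was at 5.787 in sufficient day 21 replicate 6, below 6.311 to 6.459. Mcm7 was at 11.145 in excess day 7 replicate 1, below 11.266 to 11.281. Cdc20 was at 7.274 in excess day 21 replicate 2, below 7.63 to 7.722. Mgp was at 4.797 in sufficient day 7 replicate 6, below 5.249 to 5.381.

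The excess effect differed between the days, by the interaction test in limma, upwards in 1547 genes and downwards in 685. Among 3460 probe sets that passed the filter and have no gene name here, 647 (18.7%) were called in the same interaction, 478 higher and 169 lower.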

How the results depend on the processing

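The interaction was called in 2232 genes, and in 112 with serials above 45 only, 1222 without arrays above a beta-actin gap of 2 and 1328 at an adjusted p of 0.01. The day 7 effect, and with it the genes already moved, numbered 216. It was called in 55 with the 19 arrays alone, 140 after quantile normalization, 87 after median centring, 783 with array weights, 379 with the serial as a covariate, 672 with serials up to 45, 0 with serials above 45, 25 without arrays above the gap, 131 with the replicate block, 38 at p 0.01 and 455 against deficient medium. The day 14 effect was called in 2294 with serials up to 45, 522 above 45 and 2133 without arrays above the gap, and the day 21 effect in 1934 above 45 and 2619 without those arrays. Serials above 45 gave 2520 changes with time in sufficient and 2734 in excess medium and 95 late genes, and leaving out arrays above the gap gave 934 late genes. The comparison with deficient medium had 1832 at p 0.01. The change between days 14 and 21 was called in 1532 with array weights, 392 with serials up to 45, 293 without arrays above the gap and 366 at p 0.01.

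Single arrays left out gave 1938 to 2346 genes for the interaction, 64 to 544 at day 7, 3706 to 3836 at day 14, 3535 to 4042 at day 21, 5406 to 5731 and 4992 to 5527 for time in sufficient and excess medium, 2589 to 2967 against deficient medium and 1451 to 1718 late genes. With the replicate block, 2093 genes were called, 2005 of them also without it. Ndufv1 reversed, to -0.0854, in serials above 45. The causes were not tested. The planned beta-actin ratio limit of 3 was not run, as it leaves 1, 1, 1 and 0 arrays, and the limit of 2 was chosen after seeing the data.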

Other observations

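Signalling and immune genes had calls in both directions, where 17% of all genes were called higher and 7.53% lower. Of 28 immediate early genes tested, 7 had a higher excess effect at day 21 than at day 7 and 6 a lower one, and without excess day 7 replicate 3 it was 3 lower. Fos, a subunit of AP-1, had an interaction of 1.23 ± 0.33 (log2, SE) and Egr2, a zinc finger factor, 1.06 ± 0.14, both inexact since groups of day 7 lay below the filter limit of 4. Of 23 inflammatory and chemokine genes, 6 were higher and 4 lower, with the complement proteases C1r at 1.11 ± 0.16 and C1s at 1.05 ± 0.18. Of 22 interferon response genes, 5 were higher and 1 lower, and 3 were higher without sufficient day 7 replicate 2. Irf1, an interferon regulatory factor, had 0.90 ± 0.16. In the Wnt list it was 2 and 2 of 22, with the transcription factor Tcf7 at 1.35 ± 0.27. The size for Tcf7 is inexact, since its sufficient arrays of day 7, at 3.735 to 4.24, lay near the filter limit. In the insulin-like growth factor list it was 2 and 2 of 20. Igfbp2, a binding protein, was at -0.65 ± 0.13 and below the filter limit in excess medium at days 7 and 21. Imprinted genes had 2 and 2 of 11, and H19, an imprinted non-coding RNA, had -1.01 ± 0.20.

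Surface and metabolic genes had more lower than higher calls in several lists. Adhesion receptors had 4 higher and 6 lower of 29, with the hyaluronan receptor Cd44 at -1.07 ± 0.16 (-0.70 without the arrays above a beta-actin gap of 2) and the semaphorin receptor Nrp1 at 1.10 ± 0.11. Growth factors and their receptors had 4 and 6 of 28. Matrix remodelling and coagulation had 3 and 5 of 21, with the protease Adamts1 at -0.72 ± 0.11, and 1 and 9 after median centring. Calcification genes had 2 and 4 of 11, with the phosphate transporter Slc20a2 at -0.64 ± 0.10. Glycolysis and hypoxia genes had 4 and 8 of 33, with the growth factor Vegfa at -0.86 ± 0.13. Lysosome and autophagy genes had 1 and 8 of 41, with the membrane protein Scarb2 at -0.68 ± 0.14. Endoplasmic reticulum chaperones had 2 and 5 of 24, but 2 and 2 in serials up to 45 and 1 and 0 without the arrays above the beta-actin gap. Serine and amino acid transport genes had 1 and 3 of 18, the respiratory chain 2 and 1 of 44, and iron handling 2 and 1 of 19. Marker lists had 4 and 1 of 7 for fibroblasts, 0 and 4 of 4 for epithelia (0 and 1 without excess day 7 replicate 1), 1 and 0 of 2 for leukocytes, and 0 and 0 of 2 for adipocytes and for endothelium. For all genes the shares were 17% higher and 7.53% lower, and many of these counts are near them. Without the arrays above the gap the counts were 5 and 2 for immediate early, 6 and 1 for inflammatory, 3 and 1 for interferon response, 2 and 1 for Wnt, 1 and 3 for imprinted, 2 and 2 for matrix remodelling, 2 and 2 for calcification, 0 and 7 for lysosome, 0 and 2 for serine, 0 and 1 for respiratory chain and 1 and 1 for iron handling genes. Serials up to 45 gave 3 and 4 for glycolysis, 1 and 5 for lysosome, 4 and 1 for respiratory chain, 1 and 1 for iron handling and 0 and 1 for epithelial genes.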
